A study of Mus musculus with 6 samples.

Results

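The 10 genes described here encode the surface receptors through which soluble agonists act on platelets. They are the thrombin receptors F2r, F2rl2 and F2rl3, the ADP receptors P2ry1 and P2ry12, the ATP-gated channel P2rx1, the thromboxane receptor Tbxa2r, the adrenaline receptor Adra2a, and the prostaglandin receptors Ptgir and Ptger3. They were taken by name for their ligands, and all 10 were found among the 46603 genes listed for each library. RNA was sequenced from whole bone marrow of 3 NM1 KO mice and 3 NM1 WT mice, C57/Bl6 animals 8 months old, with 1 library per mouse. NM1 is nuclear myosin 1, a nuclear isoform of the class I myosin gene Myo1c. The labels name neither the allele, nor sex, nor litter. The marrow was spun out of cleaned femurs and tibiae with no sorting, so each level is a mean over all marrow cells, and fewer cells of a type and less RNA per cell cannot be told apart.

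Platelets are shed by megakaryocytes in the marrow and carry much of the megakaryocyte's RNA. Thrombin cleaves the outer end of protease-activated receptors, ADP and thromboxane A2 released from activated platelets act on further receptors, and adrenaline adds to these signals, while prostacyclin raises cyclic AMP and holds platelets at rest. All of these receptors belong to the G protein-coupled family except P2rx1, which is an ion channel opened by ATP. In mouse platelets thrombin is bound by PAR3, the product of F2rl2, and signals through PAR4, the product of F2rl3, whereas human platelets use PAR1, the product of F2r, in place of PAR3.

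Library totals were 21101616 to 22618802 counts in NM1 KO and 15145052 to 17580660 counts in NM1 WT, so every NM1 KO library was the deeper. Levels are given as CPM, library-size-scaled counts with TMM normalisation, where 1 CPM stands for 14.7 to 23.0 counts. Low counts were nearly all even, as they would be if both mates of a read pair were counted. Y-linked genes were detected in NM1 KO 1, NM1 KO 2 and NM1 WT 2 at 158 to 199 CPM in sum and in none of the other 3 libraries, so the 2 states are unequally split between the genotypes. Myo1c, whose counts add up all isoforms and so do not check the deletion, had 73.8, 59.1 and 59.7 CPM in NM1 KO mice, against 89.8, 114.5 and 101.8 CPM in NM1 WT mice (log2 fold change -0.67, adjusted p = 0.0516). Of the receptors P2rx1 lies nearest to it, 2.64 Mb away on chromosome 11.

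All 10 receptors had enough counts to be tested. F2rl2 and Adra2a rose in NM1 KO, 2.64-fold and 4.04-fold, no receptor fell, and the other 8 did not pass an adjusted p of 0.05 in edgeR's quasi-likelihood test. Among all 15069 tested genes 0.776% passed, 0.591% as higher in NM1 KO and 0.186% as lower. At an unadjusted p under 0.05, 5 receptors were higher and 0 lower, beside 8.44% and 8.32% of tested genes. The median log2 fold change of the 10 receptors was 0.75, beside 0.00 over all tested genes, and it was 0.34 without NM1 KO 2. All 10 had a positive log2 fold change, as had 50.2% of tested genes, and each of the 20 alternative fits left all 10 positive. The 3 NM1 KO values lay above the 3 NM1 WT values for 5 of the 10, F2rl2, F2rl3, P2ry1, P2ry12 and Adra2a, beside 10.8% of tested genes. For 0 of the 10 did NM1 KO lie wholly below, beside 9.75% of tested genes. NM1 KO 2 was the highest of the 6 libraries for all 10 receptors, beside 21.3% of tested genes. With 1 library left out of edgeR's test, 0 receptors passed for NM1 KO 2, NM1 WT 1 or NM1 WT 3, 1 for NM1 KO 1, 2 for NM1 WT 2 and 3 for NM1 KO 3.

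**Figure D1:**
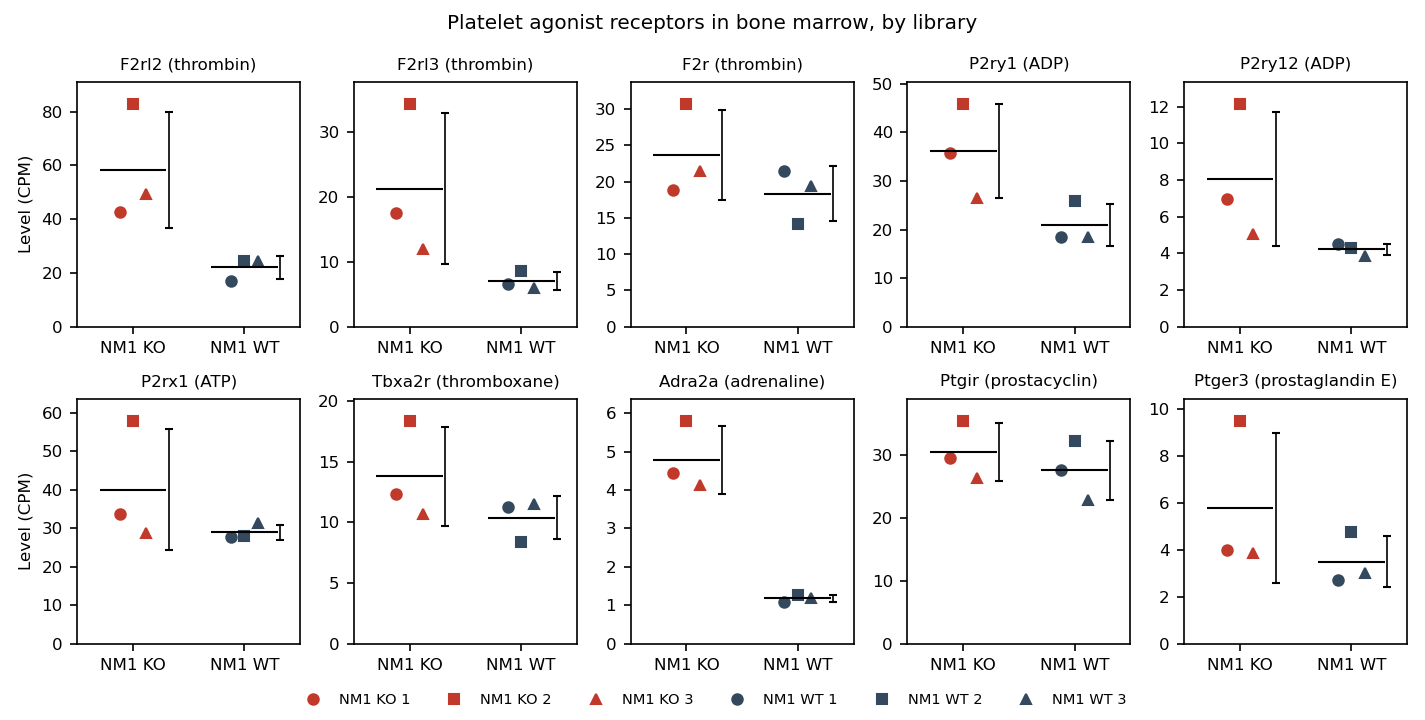
Level of each receptor in every library (y axis, CPM, starting at 0, a separate scale per panel), with NM1 KO left of NM1 WT; points are single mice, horizontal lines are means and the bars beside them are 1 SD (n = 3). NM1 KO 2 (square) is the highest point in all 10 panels, and NM1 KO lies wholly above NM1 WT for F2rl2, F2rl3, P2ry1, P2ry12 and Adra2a.

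The promoters of the thrombin receptors F2rl2 and F2rl3 are shown for their fold changes, the largest of the 10 after Adra2a. That of P2rx1 is shown because it is the other receptor with a GATA match. Adra2a is not shown, as all 250 bases before its RefSeq start lie inside the GENCODE gene. The 3 promoters were thus picked by fold change or by a match. Each runs 5' to 3' and ends at the last base before both the RefSeq start and the GENCODE gene (RefSeq sequence, GRCm38.p6). Capitals mark matches to AGATAA or its variants AGATAG, with a last G, TGATAA, with a first T, and TGATAG, with both, letters bound by GATA factors such as the megakaryocyte regulator GATA1, and to AGGAAG, letters bound by ETS factors, on either strand.
F2rl2 (chr13:95696670-95696852, plus strand): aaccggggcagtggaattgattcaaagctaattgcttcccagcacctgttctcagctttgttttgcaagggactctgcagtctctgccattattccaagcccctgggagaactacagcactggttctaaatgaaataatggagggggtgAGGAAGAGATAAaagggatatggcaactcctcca
F2rl3 (chr8:72761409-72761658, plus strand): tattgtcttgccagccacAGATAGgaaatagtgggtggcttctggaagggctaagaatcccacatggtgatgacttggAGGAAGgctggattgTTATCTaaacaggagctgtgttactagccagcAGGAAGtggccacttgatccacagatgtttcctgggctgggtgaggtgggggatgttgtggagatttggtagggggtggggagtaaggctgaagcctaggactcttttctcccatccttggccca
P2rx1 (chr11:72998895-72999102, plus strand): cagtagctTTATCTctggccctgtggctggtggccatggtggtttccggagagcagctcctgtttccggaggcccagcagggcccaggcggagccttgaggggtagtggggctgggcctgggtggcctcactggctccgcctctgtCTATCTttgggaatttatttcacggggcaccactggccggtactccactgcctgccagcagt
In F2rl2 the ETS letters and AGATAA stand end to end without overlap, 101 to 90 bases before the RefSeq start. F2rl3 holds 2 matches of each kind. P2rx1 holds 2 GATA matches on the opposite strand and no match to AGGAAG, the only ETS letters searched. In the 250 bases before the start, 3 of the 10 receptors had a GATA match and 5 had an ETS match, F2rl2, F2rl3, P2ry12, Tbxa2r and Ptgir. Tbxa2r has 2 such windows, with 2 ETS matches in window 1 and 0 in window 2, and a match in either was counted. Of 32536 windows of that length in the mouse RefSeq table, 26.5% held a GATA match, 29.6% an ETS match and 7.8% both, and 2 of the 10 receptors, F2rl2 and F2rl3, held both. P2ry1 and F2r, each with 70.8% G and C, and Ptger3 and Adra2a had neither. A match is a run of letters and no measure of binding.

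F2rl2, which encodes PAR3, the receptor that holds thrombin for PAR4 on mouse platelets (ENSMUSG00000021675, chromosome 13, 95696853 to 95702739, plus strand, GRCm38), had 42.6, 82.9 and 49.4 CPM in NM1 KO mice, against 17.1, 24.5 and 24.5 CPM in NM1 WT mice. The lowest NM1 KO library lay above the highest NM1 WT library, and NM1 KO 2 stood well above the other 2 knockouts. It averaged 58.3 ± 21.6 CPM in NM1 KO mice, against 22.03 ± 4.27 CPM in NM1 WT mice (SD, n = 3 each), a log2 fold change of 1.40 (SE 0.24, edgeR adjusted p = 0.0303). With Y-linked reads as a covariate in edgeR's test, its log2 fold change was 1.30 (adjusted p = 0.0471). As the groups did not overlap, any split of the libraries by Y-linked reads must show the same direction. The call was lost in 4 fits, those that left out NM1 KO 2 (log2 fold change 1.07, adjusted p = 0.0544), NM1 WT 1 (1.25, 0.136) or NM1 WT 3 (1.48, 0.0671) and limma-voom (1.35, 0.0634). The gene lies in an intron of Iqgap2 on the opposite strand and shares 0 exonic bases with it. Iqgap2 had 87.4 ± 8.68 CPM in NM1 KO mice, against 76.6 ± 13.4 CPM in NM1 WT mice, a log2 fold change of 0.19 that did not pass (adjusted p = 0.563).

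F2rl3, which encodes PAR4, the thrombin receptor that signals in mouse platelets (ENSMUSG00000050147, chromosome 8, 72761880 to 72763874, plus strand), had 17.5, 34.3 and 11.9 CPM in NM1 KO mice, against 6.51, 8.58 and 5.90 CPM in NM1 WT mice. The groups did not overlap, but the NM1 KO mice varied widely, with NM1 KO 2 highest and NM1 KO 3 lowest. Its log2 fold change of 1.60 (SE 0.35, 95% interval 0.84 to 2.35) missed the threshold in edgeR's test (adjusted p = 0.0548). It passed in 8 of the 20 alternatives, among them DESeq2 (2.72e-04) and the fit without NM1 KO 3 (0.0161), and it was 0.243 without NM1 KO 2, its highest value over the alternatives. F2r, which encodes PAR1, the main thrombin receptor of human platelets and of vessel and stromal cells (ENSMUSG00000048376, chromosome 13, 95601803 to 95618487, minus strand), had 18.8, 30.8 and 21.5 CPM in NM1 KO mice, against 21.5, 14.1 and 19.4 CPM in NM1 WT mice. These groups overlapped, with a log2 fold change of 0.37 (95% interval -0.12 to 0.86, edgeR adjusted p = 0.441), and without NM1 KO 2 it was 0.14.

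P2ry1, the ADP receptor that raises calcium and starts the shape change of platelets (ENSMUSG00000027765, chromosome 3, 61002795 to 61008982, plus strand), had 35.8, 45.9 and 26.5 CPM in NM1 KO mice, against 18.5, 25.9 and 18.4 CPM in NM1 WT mice. The groups were separated by less than 1 CPM, between NM1 KO 3 and NM1 WT 2. Its log2 fold change was 0.79 (SE 0.22, 95% interval 0.32 to 1.26, edgeR adjusted p = 0.114), past the threshold in 6 of the 20 alternatives, among them DESeq2 (0.0223). The antisense gene Gm37035 shares 992 exonic bases with P2ry1 but held only 14 counts over the NM1 KO libraries and 2 over the NM1 WT libraries, where P2ry1 held 2387 and 998.

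P2ry12, the ADP receptor that lowers cyclic AMP and is the target of clopidogrel (ENSMUSG00000036353, chromosome 3, 59216272 to 59262871, minus strand), had 6.96, 12.2 and 5.06 CPM in NM1 KO mice, against 4.48, 4.29 and 3.87 CPM in NM1 WT mice. NM1 KO lay above NM1 WT, with NM1 KO 3 close to the wild types. The log2 fold change of 0.94 (SE 0.35, 95% interval 0.17 to 1.70) did not pass in edgeR's test (adjusted p = 0.209) or in any of the 20 alternatives, and it was 0.52 without NM1 KO 2. P2ry12 stands within Med12l, which runs on the opposite strand and shares 9 exonic bases with it, in a cluster with P2ry13 and P2ry14, receptors for ADP and for UDP-sugars. None of these neighbours passed: Med12l had a log2 fold change of 0.49, P2ry13 of -0.02 and P2ry14 of -0.29. P2ry13 changed sign in 7 of the 20 alternatives.

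P2rx1, the ATP-gated cation channel of platelets, also made by smooth muscle and neutrophils (ENSMUSG00000020787, chromosome 11, 72999103 to 73015200, plus strand), had 33.6, 57.9 and 28.6 CPM in NM1 KO mice, against 27.7, 27.9 and 31.3 CPM in NM1 WT mice. NM1 KO 3 lay within the wild-type range and NM1 KO 2 stood far above it. The log2 fold change was 0.47 (95% interval -0.04 to 0.97, edgeR adjusted p = 0.334), and without NM1 KO 2 it was 0.11. Tbxa2r, the thromboxane A2 receptor (ENSMUSG00000034881, chromosome 10, 81328731 to 81335172, plus strand), had 12.3, 18.4 and 10.7 CPM in NM1 KO mice, against 11.3, 8.34 and 11.5 CPM in NM1 WT mice. The groups overlapped, with a log2 fold change of 0.41 (95% interval -0.15 to 0.97, edgeR adjusted p = 0.451), and 0.15 without NM1 KO 2.

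Adra2a, the alpha-2A adrenergic receptor through which adrenaline lowers cyclic AMP (ENSMUSG00000033717, chromosome 19, 54044151 to 54048982, plus strand), had 4.44, 5.803 and 4.13 CPM in NM1 KO mice, against 1.09, 1.27 and 1.18 CPM in NM1 WT mice. These levels rest on 88 to 126 counts in NM1 KO libraries and on 16 to 22 counts in NM1 WT libraries. If both mates of a pair were counted, the read pairs behind them are fewer than these counts. Every NM1 KO value lay far above every NM1 WT value, and the mice of each genotype lay close together. The log2 fold change of 2.01 (SE 0.40, 95% interval 1.14 to 2.89) was the largest of the 10 receptors (edgeR adjusted p = 0.0463), and it ranged from 1.86 to 2.11 over the 20 alternatives. The call held without NM1 WT 2 (0.0428) but not without NM1 KO 1 (0.0749), NM1 KO 2 (0.225), NM1 KO 3 (0.0604), NM1 WT 1 (0.192) or NM1 WT 3 (0.114). It was also lost with upper-quartile scaling (0.0528), limma-voom (0.0919) and adjustment for Y-linked reads (0.0925).

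Ptgir, the prostacyclin receptor that raises cyclic AMP and restrains platelets (ENSMUSG00000043017, chromosome 7, 16906490 to 16910905, plus strand), had 29.5, 35.4 and 26.4 CPM in NM1 KO mice, against 27.5, 32.2 and 22.8 CPM in NM1 WT mice. The ranges of the genotypes largely coincided, with a log2 fold change of 0.14 (95% interval -0.24 to 0.53, edgeR adjusted p = 0.737), and 0.02 without NM1 KO 2. Ptger3, the prostaglandin E2 receptor that lowers cyclic AMP and adds to aggregation (ENSMUSG00000040016, chromosome 3, 157566892 to 157645888, plus strand), had 4.00, 9.49 and 3.85 CPM in NM1 KO mice, against 2.71, 4.75 and 3.02 CPM in NM1 WT mice. The groups overlapped through NM1 WT 2, and the log2 fold change of 0.72 (95% interval -0.21 to 1.65, edgeR adjusted p = 0.426) was 0.17 without NM1 KO 2.

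**Figure D2:**
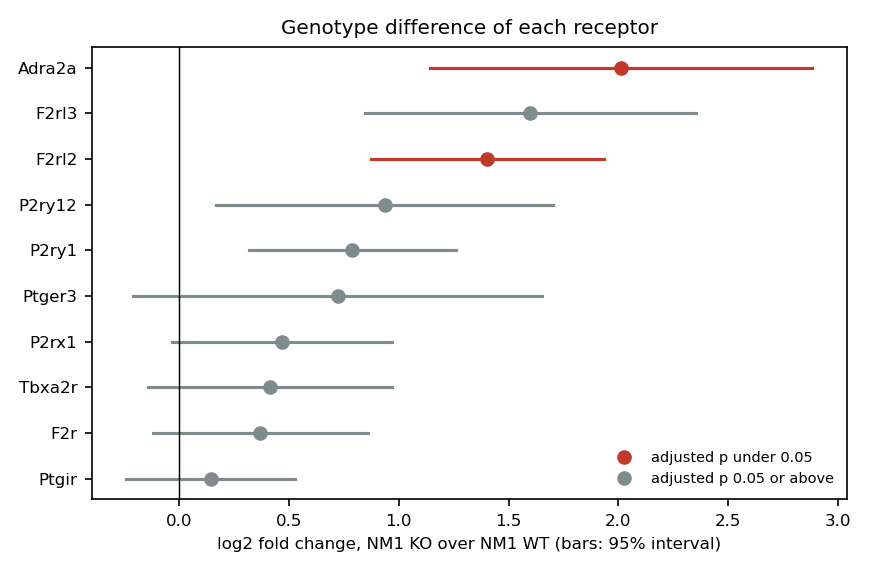
Log2 fold change of each receptor, NM1 KO over NM1 WT (x axis), with 95% intervals from edgeR's quasi-likelihood fit over 3 mice per genotype; red marks adjusted p under 0.05. All 10 points lie right of 0, from 0.14 for Ptgir to 2.01 for Adra2a, and the intervals of F2r, P2rx1, Tbxa2r, Ptgir and Ptger3 reach below 0.

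Per length of exon, the order of the receptors was not the same in the 2 genotypes. In NM1 KO the highest was F2rl2 at 23.3 ± 8.62 CPM per kb of exon (17.04, 33.1 and 19.7), followed by P2rx1 at 15.3 and F2rl3 at 10.7 CPM per kb. Ptgir, P2ry1, Tbxa2r and F2r came next at 9.12 to 7.10 CPM per kb, and each neighbour in the order from F2rl2 to F2r overlapped the next. P2ry12 at 3.17 CPM per kb lay apart from F2r and from Ptger3, and Ptger3 and Adra2a overlapped at 1.02 and 0.99 CPM per kb. In NM1 WT the highest was P2rx1 at 11.04 ± 0.76 CPM per kb (10.5, 10.6 and 11.9), apart from F2rl2 at 8.80 CPM per kb. Ptgir (8.25) overlapped F2rl2 and lay apart from F2r (5.50), Tbxa2r, P2ry1 and F2rl3 (3.51) followed with overlapping neighbours, and P2ry12 (1.65), Ptger3 (0.61) and Adra2a (0.24) each lay apart from the one before. By mean, Adra2a was the lowest of the 10 in both genotypes. By library, it lay above Ptger3 in NM1 KO 1 and NM1 KO 3 and below it in NM1 KO 2. F2rl3 was in place 3 by mean in NM1 KO, or place 4 without NM1 KO 2, and in place 7 in NM1 WT. Exon lengths are those of all annotated exons. With its longest transcript, Ptger3 was higher, at 1.61 CPM per kb in NM1 KO and 0.98 CPM per kb in NM1 WT. It then lay above Adra2a in every NM1 KO library, at 1.119, 2.652 and 1.075 against 0.9185, 1.201 and 0.854 CPM per kb.

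**Figure D3:**
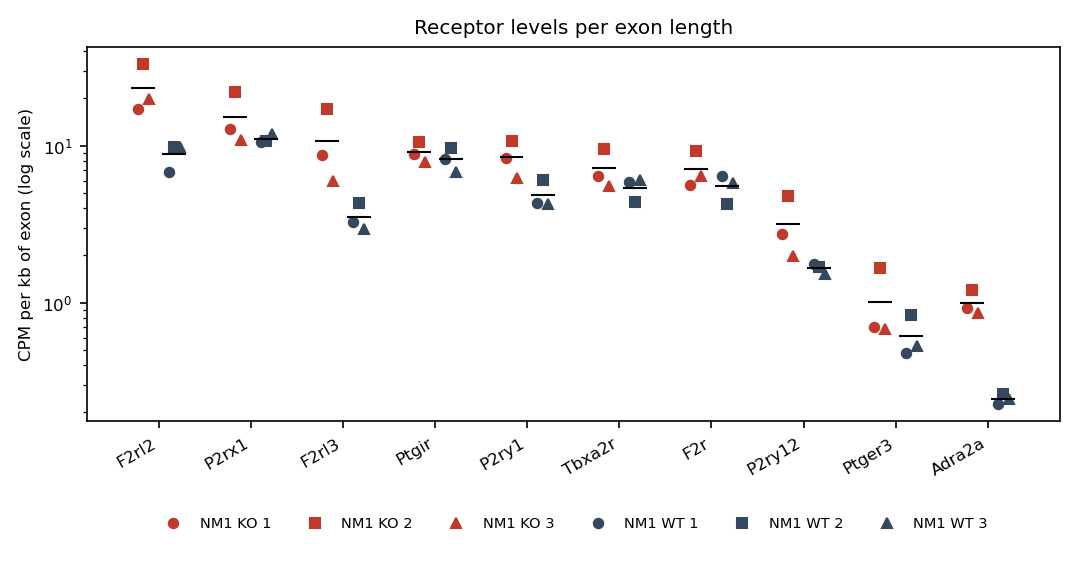
Receptor levels per kb of exon (y axis, log scale), ordered by the NM1 KO mean, with NM1 KO left of NM1 WT for each gene; points are single mice and lines are means. F2rl2 leads in NM1 KO at 23.3 CPM per kb, P2rx1 leads in NM1 WT at 11.04 CPM per kb, and Adra2a is lowest in NM1 WT and overlaps Ptger3 in NM1 KO.

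Markers of the platelet lineage were higher in the same libraries. Of 26 such markers 17 rose and 0 fell in the knockout, their summed level was 3948 to 7670 CPM in NM1 KO and 2308 to 2678 CPM in NM1 WT, and no marker was at 0 in any library. Leaving out NM1 KO 2 left 10 calls, leaving out NM1 WT 1 left 3, and leaving out NM1 WT 3 left 4. The count was 8 in limma-voom and 9 after adjustment for Y-linked reads. Of all tested genes 0.591% passed as higher in edgeR's test. NM1 KO 2 was the highest library for 25 of the 26, beside 21.3% of tested genes. Receptor levels were therefore also set against a platelet score, the mean log2 CPM of the 26 markers, which averaged 6.76 ± 0.43 in NM1 KO, against 5.63 ± 0.15 in NM1 WT. The receptor minus the score is a difference of logs within a library, and it shows unequal change only. As the score is higher in NM1 KO, 76.0% of all tested genes had every NM1 KO value below every NM1 WT value on this scale, and 0.299% had every NM1 KO value above.

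On this scale 5 receptors overlapped between genotypes, 4 lay lower in NM1 KO and 1 lay higher. F2rl2 and F2rl3 overlapped between genotypes: F2rl2 stood at -1.17, -0.88 and -0.83 in NM1 KO and at -1.35, -1.08 and -1.12 in NM1 WT, and F2rl3 had means of -2.49 ± 0.36 in NM1 KO and -2.83 ± 0.30 in NM1 WT. P2ry1, P2ry12 and Ptger3 overlapped too, with NM1 KO minus NM1 WT at -0.36, -0.30 and -0.51. P2rx1, Tbxa2r, F2r and Ptgir lay wholly lower in NM1 KO, as most tested genes did, with differences of -0.73, -0.75, -0.78 and -0.99. P2rx1 had -1.51, -1.39 and -1.61 in NM1 KO and -0.66, -0.89 and -0.77 in NM1 WT. Adra2a alone of the 10 lay wholly higher in NM1 KO, at -4.43, -4.71 and -4.40 against -5.29, -5.31 and -5.46 in NM1 WT, a difference of 0.84 that ranged from 0.79 to 0.94 with single libraries left out. Leaving out 1 library parted 5 of the overlapping receptors: F2rl2 (NM1 KO 1) and F2rl3 (NM1 KO 3) then lay wholly higher in NM1 KO, and P2ry1 (NM1 KO 1 or NM1 WT 3), P2ry12 and Ptger3 (NM1 KO 2 or NM1 WT 3) wholly lower. Fewer values part more easily, and the share of all tested genes was not computed with a library left out. The count of parted receptors is therefore not read as a result about them. All differences on this scale are given as values, with no test.

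**Figure D4:**
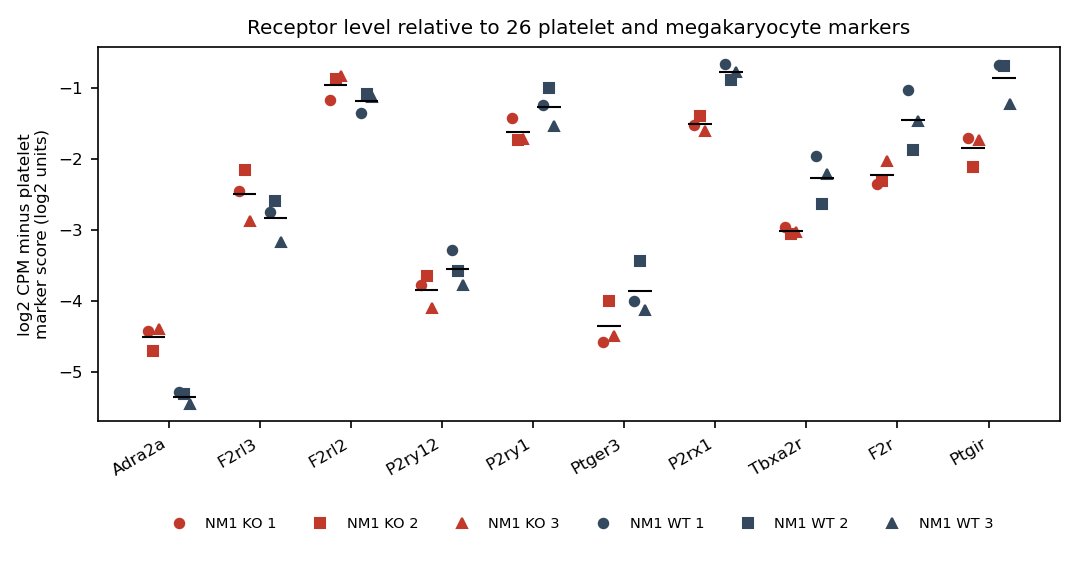
Log2 CPM of each receptor minus the platelet marker score of the same library (y axis, log2 units), ordered by the genotype difference, with NM1 KO left of NM1 WT; points are single mice and lines are means. Adra2a lies higher in NM1 KO by 0.84, F2rl3 and F2rl2 overlap, and P2rx1, Tbxa2r, F2r and Ptgir lie lower by 0.73 to 0.99.

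Several of these receptors are also made by other marrow cells, and markers of some marrow cells moved too. Of all tested genes 0.591% passed as higher in edgeR's test and 0.186% as lower. In either direction, DESeq2 called 794 of 14468 tested genes and limma-voom 37 of 15069. Of 16 stromal and fibroblast markers 7 rose and 0 fell, with sums of 1345 to 2238 CPM in NM1 KO and 626.5 to 751.2 CPM in NM1 WT and no marker at 0. Leaving out NM1 KO 2 left 2 stromal calls, leaving out NM1 WT 1 left 1 and leaving out NM1 WT 3 left 2, and limma-voom made 2. Of 14 endothelial markers 1 rose, with sums of 252.8 to 350.5 CPM in NM1 KO and 163.8 to 242.1 CPM in NM1 WT and none at 0. The endothelial count was 0 without NM1 KO 2, NM1 WT 1 or NM1 WT 3 and 7 with DESeq2. Of 16 eosinophil, basophil and mast cell markers 7 fell, with sums of 1299 to 1838 CPM in NM1 KO and 2977 to 4409 CPM in NM1 WT. That count was 4 with NM1 WT 3 left out. Skeletal muscle markers, from tissue that adjoins the bones, rose in 6 of 10, with sums of 129.9 to 163.9 CPM in NM1 KO, against 43.7 to 52.3 CPM in NM1 WT, and 3 of the 12 listed were at 0 in a library. Leaving out NM1 WT 1 left 0 muscle calls, leaving out NM1 KO 3 or NM1 WT 3 left 3, leaving out NM1 KO 1 or NM1 KO 2 left 4, and limma-voom made 2. Macrophage and osteoclast markers rose in 2 of 13, and in 0 with NM1 KO 2, NM1 WT 1 or NM1 WT 3 left out. Their sums overlapped, at 1767 to 2230 CPM in NM1 KO and 1699 to 2204 CPM in NM1 WT. Neutrophil markers summed to 39880 to 51850 CPM in NM1 KO and 51890 to 70650 CPM in NM1 WT. In edgeR's test 0 of 15 neutrophil markers passed, and 9 were lower at an unadjusted p under 0.05, beside 8.32% of tested genes. With DESeq2 7 neutrophil markers passed, and with limma-voom 0. Smooth muscle and pericyte sums overlapped, at 64.9 to 92.1 CPM in NM1 KO and 62.2 to 78.0 CPM in NM1 WT. Erythroid, T and NK cell, and B cell sums overlapped too, and 0 of their markers passed in edgeR's test. At an unadjusted p under 0.05, 8 of 13 erythroid markers were higher, beside 8.44% of tested genes. With DESeq2 5 erythroid and 2 B cell markers passed. The part of these cells in the receptor levels was not tested. Set against the stromal score in place of the platelet score, Adra2a was again wholly higher in NM1 KO, at -2.39, -2.45 and -2.41 against -3.31, -2.68 and -3.38 in NM1 WT. P2rx1, Tbxa2r, F2r and Ptgir were again wholly lower and the other 5 overlapped, beside 81.2% of tested genes wholly lower and 0.199% wholly higher. Set against the endothelial score, Adra2a was wholly higher by 1.26 and the other 9 overlapped, beside 42.7% of tested genes wholly lower and 0.869% wholly higher.

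The genes whose profile over the 6 libraries came closest to the 3 receptors of smallest p were named by the distance between log2 CPM values centred on each gene's mean. For F2rl2 they were Sytl4, a granule secretion protein, Gp1ba, the von Willebrand factor receptor chain of platelets, and Sema6d, a semaphorin, at distances of 0.25, 0.28 and 0.29, beside a median of 2.00 over all tested genes. For F2rl3 they were Mrvi1, a substrate of cyclic GMP-dependent kinase, Pde3a, the cyclic AMP phosphodiesterase of platelets, and Gucy1a1, a subunit of the nitric oxide receptor (0.34, 0.35 and 0.37, median 2.28). For Adra2a they were Vstm4, a membrane protein, Fmo2, a monooxygenase, and Col1a2, a chain of type I collagen (0.30, 0.36 and 0.38, median 2.56). Col1a2 is on the stromal marker list and Gp1ba on the platelet marker list. The 3 nearest genes fall below the median distance for any gene, so the medians give the scale only. As the 3 receptors were picked by smallest p, genes with a like genotype difference come nearest.

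No member of a list of related receptors passed in edgeR's test, and not all of its members bind the same or a close ligand. Of 30 such related receptors 18 were tested, and 0 passed in edgeR's test, 0 at an unadjusted p under 0.05, 0 with DESeq2 and 0 with limma-voom, with a median log2 fold change of -0.18 (0.00 over all tested genes), or 0.02 without NM1 WT 2. P2rx4, another ATP-gated channel, had 36.6, 34.1 and 33.3 CPM in NM1 KO mice, against 44.0, 37.2 and 47.7 CPM in NM1 WT mice, a log2 fold change of -0.31 (adjusted p = 0.311). P2ry10, a lymphocyte receptor for lysophosphatidylserine, had 20.5, 36.0 and 6.75 CPM in NM1 KO mice, against 13.7, 12.4 and 12.5 CPM in NM1 WT mice. Its log2 fold change of 0.72 (SE 0.43, adjusted p = 0.428) was 0.09 without NM1 KO 2 and 1.14 without NM1 KO 3, and it passed in 1 of the 20 alternatives, that with no low-count filter (0.0255). F2rl1, the neighbour of F2r and F2rl2 on chromosome 13 that encodes PAR2, was near the limit of detection, with 60 counts over the NM1 KO libraries and 52 over the NM1 WT libraries.

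Among the proteins that carry the receptors' signals, 1 of 29 G protein subunits and regulators rose, Gng11, a G protein gamma subunit, with 54.6, 86.3 and 41.4 CPM in NM1 KO mice, against 24.8, 22.6 and 27.9 CPM in NM1 WT mice (log2 fold change 1.27, SE 0.23, edgeR adjusted p = 0.0356). Gnaz, the G protein alpha subunit that couples Adra2a in platelets, had 40.8 ± 9.59 CPM in NM1 KO mice, against 21.3 ± 3.94 CPM in NM1 WT mice (adjusted p = 0.0516). The list's median was -0.08, with 5 members passing in DESeq2 and 0 in limma-voom. Over all tested genes, DESeq2 called 794 of 14468 in either direction and limma-voom 37 of 15069. Of all tested genes 0.591% passed as higher in edgeR's test. At an unadjusted p under 0.05 in that test, 4 of the 29 were higher and 8 lower, beside 8.44% and 8.32% of tested genes. Gng11 did not pass without NM1 KO 2 (0.0701), NM1 WT 1 (0.152), NM1 WT 2 (0.0528) or NM1 WT 3 (0.0761), with limma-voom (0.0745) or after adjustment for Y-linked reads (0.0821).

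Of 34 tested second messenger effectors 1 rose, Prkar2b, a regulatory subunit of cyclic AMP-dependent kinase, with 183.7, 266.1 and 191.8 CPM in NM1 KO mice, against 117.8, 138.4 and 119.1 CPM in NM1 WT mice (log2 fold change 0.77, SE 0.16, edgeR adjusted p = 0.0498). Adcy6, an adenylyl cyclase, had 85.6 ± 13.2 CPM in NM1 KO mice, against 51.9 ± 5.60 CPM in NM1 WT mice (adjusted p = 0.0504). In edgeR's test 0.591% of all tested genes passed as higher. At an unadjusted p under 0.05 in that test, 8 of the 34 were higher and 7 lower, beside 8.44% and 8.32% of tested genes. The list's median was -0.02. With NM1 KO 2, NM1 WT 1 or NM1 WT 3 left out 0 members passed, and 3 passed without any other single library. With DESeq2 9 passed, beside 794 of 14468 tested genes, and 0 did with limma-voom or adjustment for Y-linked reads. Prkar2b alone had adjusted p = 0.179, 0.233 and 0.143 when NM1 KO 2, NM1 WT 1 and NM1 WT 3 were left out in turn, 0.0510 with RLE scaling, 0.0527 with upper-quartile scaling, 0.0703 with limma-voom and 0.0870 after adjustment for Y-linked reads.

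Of 28 tested genes that supply or remove the agonists 1 rose, Serpine2, protease nexin 1, an inhibitor of thrombin stored in platelets, with 235.7, 329.9 and 144.5 CPM in NM1 KO mice, against 82.2, 110.4 and 76.2 CPM in NM1 WT mice (log2 fold change 1.40, SE 0.25, edgeR adjusted p = 0.0345). Hpgd, the enzyme that inactivates prostaglandins, had 40.0 ± 9.27 CPM in NM1 KO mice, against 22.1 ± 0.52 CPM in NM1 WT mice (adjusted p = 0.0513). The list's median was 0.22, with 6 members passing in DESeq2 and 0 in limma-voom. DESeq2 called 794 of 14468 tested genes in either direction. In edgeR's test 0.591% of all tested genes passed as higher. At an unadjusted p under 0.05 in that test, 8 of the 28 were higher and 2 lower, beside 8.44% and 8.32% of tested genes. Serpine2 did not pass without NM1 KO 1 (0.0567), NM1 KO 2 (0.0818), NM1 WT 1 (0.160) or NM1 WT 3 (0.105), or with limma-voom (0.0621), and the count was 3 without NM1 KO 3.

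**Figure D5:**
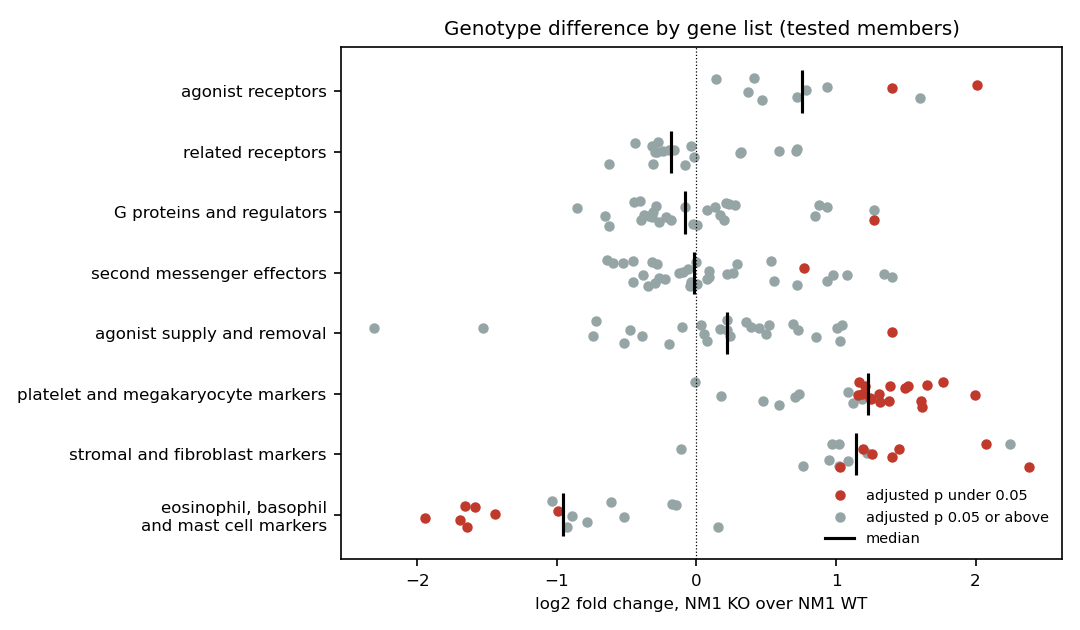
Log2 fold change, NM1 KO over NM1 WT (x axis), of every tested member of 8 gene lists; red points passed adjusted p under 0.05 in edgeR's test, grey points did not, and the black bar is the list's median. The agonist receptors have a median of 0.75, between the related receptors at -0.18 and the platelet and megakaryocyte markers at 1.23; without NM1 KO 2 these medians were 0.34, -0.09 and 0.90.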

How the data were processed

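Unsorted marrow RNA from 3 NM1 KO mice and 3 NM1 WT mice was sequenced on an Illumina NextSeq after NEBNext Ultra II library preparation, per the labels' protocols. The authors deposited raw read counts per Ensembl gene, 1 file per mouse. HTSeq, HISAT2 2.0.4, Trimmomatic 0.36, SAMtools 0.1.19 and FastQC are the tools in the submitters' processing notes, with builds GRCm38 and mm10. How strand was set, which annotation was used and how pairs were counted is not given in the sources used here, so reads of overlapping genes cannot be told apart by strand.

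Of 46603 genes, 46091 matched GENCODE M21 (GRCm38). Genotype was tested with edgeR 4.0.16 (R 4.3.3) by glmQLFTest after filterByExpr and TMM, with Benjamini-Hochberg adjustment over 15069 genes and a threshold of 0.05. SE is the log2 fold change over the root of F. Log2 CPM for scores used a prior count of 0.5. The pipeline was tested on simulated counts. Alternatives used limma 3.58.1 and DESeq2 1.42.0 among others. The receptors and lists were chosen with earlier results of these data known. All 10 receptors are named, with the 2 members of smallest p in each signalling list, genes that overlap or adjoin a receptor, and the 3 nearest profiles of the 3 receptors of smallest p. The stromal and endothelial scores and the ratios between receptors were added after the values were seen. Pde2a was not analysed here, and 1 gene the naming rule covers is not reported here.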

Additional observations from a re-analysis of the deposited data

How the results depend on the processing

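Over all genes, 117 passed in edgeR's test, 1138 with no low-count filter, 541 with the likelihood ratio test, 794 with DESeq2, 37 with limma-voom, 482 with quality weights, 208 without haemoglobin, immunoglobulin and mitochondrial genes, 60 after adjustment for Y-linked reads, and 26 to 344 without single libraries. Of the 10 receptors 2 passed, 1 with upper-quartile scaling or that adjustment, 4 with no filter, the likelihood ratio test, DESeq2 or quality weights, 0 with limma-voom, and 0 to 3 without single libraries. The same 2 passed with counts thinned to the smallest library or halved. The cause of these shifts was not tested. With the replicate number as a block in edgeR's test 421 genes and 4 receptors passed. F2rl3 (adjusted p = 0.0142) and P2ry1 (0.0270) then passed beside F2rl2 and Adra2a. Deviations of same-numbered mice correlated at 0.054, 0.115 and 0.0667 across genes, and each mouse correlated best with its own number. The labels give no pairing, so the numbers were not taken as pairs. With the longest transcript as length, P2ry12 had 1.80 CPM per kb in NM1 WT and Ptger3 had 1.61 in NM1 KO, against 0.98 in NM1 WT. Log2 fold changes near 0 turned for P2ry13 (total counts 0.024, quality weights 0.036, replicate block 0.0057, single libraries left out -0.25 to 0.18) and F2rl1 (single libraries left out -0.90 to 0.29). Adra2a had 16 to 22 counts in NM1 WT libraries, which limits its precision.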

Other observations

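Ratios between 2 receptors of a library do not depend on its scaling, and pairs were chosen here after the values were seen. Per length, F2rl2 stood at 3.03, 3.59 and 3.07 times F2r in NM1 KO and at 1.06, 2.31 and 1.69 times in NM1 WT. These values did not overlap. F2rl2 was called higher and F2r was not, so the ratio restates their fold changes. The share of other gene pairs that part in this way was not computed. F2rl2 over F2rl3, the pair that serves thrombin in mouse platelets, averaged 2.39 ± 0.79 in NM1 KO and 2.56 ± 0.66 in NM1 WT. The 2 ADP receptors also had overlapping ratios, with P2ry1 over P2ry12 at 2.80 ± 0.49 in NM1 KO and 2.95 ± 0.58 in NM1 WT. P2ry1 over P2rx1 overlapped as well, at 0.57 ± 0.08 in NM1 KO and 0.44 ± 0.11 in NM1 WT. Ptgir over Tbxa2r, an inhibitory over an activating prostanoid receptor, was 1.38, 1.11 and 1.42 in NM1 KO and 1.41, 2.22 and 1.13 in NM1 WT, again overlapping.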
